A study of Mus musculus with 8 samples.

Results

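The 10 genes described here encode chromatin regulators, a splicing repressor and an autophagy protein that bear on the conversion of fibroblasts into cardiomyocyte-like cells: Bmi1, Ezh2, Kdm6a, Kdm6b, Men1, Kmt2b, Dnmt1, Hdac7, Ptbp1 and Becn1. They were taken by gene symbol from the array annotation, 10 of 19505 distinct symbols, and each symbol had 1 transcript cluster, the unit for which the array gives a value. The cells were mouse postnatal tail-tip fibroblasts (TTFs), a primary culture from skin and underlying tissue of the tail, all transduced with retroviruses for the cardiac transcription factors Gata4, Hand2, Mef2c and Tbx5 (GHMT). The 8 arrays came from 2 numbered fibroblast sets. Set 1 held cells with GHMT alone, with added diclofenac (a blocker of the cyclooxygenases that start prostaglandin synthesis), GHMT with an antagonist of the prostaglandin E2 receptor EP4, and GHMT with diclofenac plus prostaglandin E2 (PGE2). Set 2 held GHMT alone and GHMT with the EP4 antagonist, a TGFb inhibitor or a Wnt inhibitor. GHMT and the EP4 antagonist thus had 2 arrays each and every other condition had 1. The compounds, or DMSO as the vehicle, were given together with the virus, and medium with fetal serum followed after 24 h. Whether the GHMT arrays received DMSO is not stated, so vehicle and compound cannot be told apart in a difference from GHMT. Doses, harvest time, the number and age of the animals and any selection of transduced cells were not stated in the sources used, and no array of untransduced fibroblasts was part of the data.

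Fibroblasts keep cardiac genes silent through several layers of control. Bmi1 is a subunit of Polycomb repressive complex 1, which places ubiquitin on histone H2A, and Ezh2 is the methyltransferase of Polycomb repressive complex 2, whose methyl mark on histone H3 the demethylases Kdm6a and Kdm6b remove. Men1 encodes menin, a scaffold that brings methyltransferases such as Kmt2b to promoters, where they place a methyl mark of active genes. Dnmt1 copies DNA methylation onto the new strand after replication, and Hdac7 is a class IIa histone deacetylase that binds and represses MEF2 factors. Ptbp1 represses muscle and neuronal exons during splicing, and Becn1 encodes beclin 1, a subunit of the lipid kinase complex that starts autophagy. Loss of Bmi1, Ptbp1 or Becn1 has been reported to ease the conversion of fibroblasts into cardiomyocyte-like cells.

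The promoters of the members with 1 listed start site are shown because these include Ezh2, Ptbp1 and Kdm6a, which were among the genes that stood apart in the TGFb inhibitor array, and Bmi1, which lay higher in all arrays of set 2. Each is the 250 bases before the start site, 5′ to 3′ on the gene's strand, from RefSeq on GRCm38.p6: Ezh2 at chr6:47595031-47595280 (minus strand), Ptbp1 at chr10:79854182-79854431 (plus strand), Bmi1 at chr2:18676768-18677017 (plus strand) and Kdm6a at chrX:18162325-18162574 (plus strand). Capitals mark the CCAAT box (CCAAT) and the GC box (GGGCGG) on either strand.
Ezh2: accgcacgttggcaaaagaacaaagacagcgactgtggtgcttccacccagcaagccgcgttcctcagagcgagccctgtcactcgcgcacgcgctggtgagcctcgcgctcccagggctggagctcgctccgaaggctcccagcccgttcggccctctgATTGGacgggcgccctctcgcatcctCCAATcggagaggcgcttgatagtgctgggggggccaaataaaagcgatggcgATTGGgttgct
Ptbp1: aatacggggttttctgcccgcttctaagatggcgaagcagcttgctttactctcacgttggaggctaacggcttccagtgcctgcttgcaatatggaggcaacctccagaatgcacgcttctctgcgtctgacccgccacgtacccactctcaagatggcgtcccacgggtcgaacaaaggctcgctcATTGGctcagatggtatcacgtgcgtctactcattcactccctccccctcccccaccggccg
Bmi1: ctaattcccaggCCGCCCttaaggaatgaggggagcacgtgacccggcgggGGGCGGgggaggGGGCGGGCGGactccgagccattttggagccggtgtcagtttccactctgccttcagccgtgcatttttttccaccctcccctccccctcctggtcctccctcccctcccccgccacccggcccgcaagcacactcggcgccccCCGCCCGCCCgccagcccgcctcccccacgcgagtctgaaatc
Kdm6a: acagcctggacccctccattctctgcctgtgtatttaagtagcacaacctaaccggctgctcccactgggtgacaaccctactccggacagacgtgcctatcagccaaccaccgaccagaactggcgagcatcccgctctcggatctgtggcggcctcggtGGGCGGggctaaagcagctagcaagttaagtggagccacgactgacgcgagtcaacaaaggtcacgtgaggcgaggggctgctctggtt
The Ezh2 window held 3 CCAAT boxes and no GC box, and the Ptbp1 window held 1 CCAAT box. The Bmi1 window held 6 GC boxes, some of them overlapping, and the Kdm6a window held 1. Among 32851 windows of this length, 33.8% held a CCAAT box and 32.7% a GC box, so that the presence of either is common. The windows were rich in CpG, with 23 CpG in Ezh2, 21 in Bmi1, 17 in Ptbp1 and 15 in Kdm6a, beside a median of 6 and an upper quartile of 16 over all windows. None of the 4 held the E2F-type letters TTTCCCGC, TTTGGCGC or TTCCCGCC, the cAMP response element TGACGTCA, the SMAD-type palindrome GTCTAGAC or the TCF/LEF letters CTTTGAT, searched on both strands, which stood in 0.895%, 0.417%, 1.86%, 1.55%, 0.167% and 3.21% of all windows. Dnmt1 and Men1 had 3 listed start sites each and Hdac7 had 4. Of the Dnmt1 windows, that with the most CpG (26) held 3 CCAAT boxes and 2 GC boxes. Kdm6b, Kmt2b and Becn1 were not matched in the table of promoters.

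All values are log2 expression values as deposited, so that a difference of 1 is 2-fold, and levels of different genes are not compared because each is read by its own probes. Of the 22206 transcript clusters, 43.7% to 45.7% lay above an array's background level, the 95th percentile of its background control probe sets (5.73 to 5.99). Of the members, 9 of 10 lay above it in all 8 arrays, and Kmt2b did so in 7 of 8. The fibroblast label was checked against markers, and 8 of 9 measured fibroblast genes were above background in all arrays (mean of the list 12.80 to 14.14). Of 10 cardiomyocyte genes, 7 were above background in all arrays (mean 9.07 to 10.95) and 2 in none. All 7 endothelial, all 6 keratinocyte and 6 of 7 leukocyte genes were at background in every array, as were 3 of 6 skeletal muscle and 3 of 4 Schwann and neural genes. The arrays read RNA of whole cultures, so fewer cells of a type and less RNA per cell cannot be told apart.

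The largest comparison set the arrays in which the PGE2-EP4 route was inhibited (diclofenac in set 1, EP4 antagonist in either set) against those in which it was active (GHMT of either set, and diclofenac with PGE2 added back), 3 against 3. It addresses the route named in the study's title. The clearest pattern among the members was that of Dnmt1, the maintenance DNA methyltransferase. In set 1 its level was 9.12 with GHMT, 8.70 with diclofenac, 8.42 with the EP4 antagonist and 9.19 when PGE2 was added to diclofenac. In set 2 it was 9.06 with GHMT and 8.73 with the EP4 antagonist. The 3 inhibited arrays lay below the 3 active ones with no overlap, as did 3.09% of all clusters, and no other member separated the arms. The fitted difference was -0.51 ± 0.16 (SE, 3 against 3 arrays; 95% interval -0.86 to -0.15), 1.42-fold, with an unadjusted p of 0.00981 by limma. It missed the threshold after adjustment over all clusters (adjusted p = 0.323, limma with the fibroblast set as a block). Dnmt1 was the only member with an unadjusted p under 0.05 by limma. Of all clusters, 8.67% had such a p, so that 1 such member is near this background.

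None of the 10 members passed the limma threshold in this comparison, in which 0.378% of all clusters were called. The proliferation list, 19 measured genes of DNA replication and mitosis, moved beside Dnmt1, whose transcript is known to be abundant in dividing cells. The mean level of the list was 8.99, 8.71, 8.70 and 9.20 in set 1, in the order GHMT, diclofenac, EP4 antagonist and diclofenac plus PGE2. It was 9.48 with GHMT and 9.11 with the EP4 antagonist in set 2. Of the 19 genes, 18 had a negative difference with a median of -0.36, beside -0.01 over all clusters, and 0 of the 19 passed the test (limma). Markers moved as well, since all 10 cardiomyocyte genes had positive differences with a median of 0.89, 3 of them past the threshold, and 8 of 9 fibroblast genes had negative differences (median -0.47, 0 past). The part of dividing cells and of cell makeup in the Dnmt1 values was not tested.

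The Polycomb genes differed little between the arms. Ezh2 was at 8.21 with GHMT, 8.67 with diclofenac, 8.10 with the EP4 antagonist and 8.46 with diclofenac plus PGE2 in set 1, and at 8.52 with GHMT and 8.30 with the EP4 antagonist in set 2. Its inhibited arrays lay on both sides of the active ones, with a difference of -0.04 (95% interval -0.46 to 0.38). Bmi1 was at 10.14, 10.22, 9.83 and 9.93 in set 1 in the same order, and at 10.55 with GHMT and 10.80 with the EP4 antagonist in set 2. The Bmi1 difference was 0.08 (95% interval -0.30 to 0.46), and its arrays differed more between the sets than between the arms.

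The demethylases and the menin pair had negative differences, none of them past the threshold. Kdm6a was at 11.13 with GHMT, 11.28 with diclofenac, 11.06 with the EP4 antagonist and 11.61 with diclofenac plus PGE2 in set 1, and at 11.29 and 10.79 with GHMT and the EP4 antagonist in set 2. Its difference of -0.30 (95% interval -0.70 to 0.10; adjusted p = 0.729, limma) goes with a highest array in diclofenac plus PGE2 and a lowest array in the EP4 antagonist of set 2. Kdm6b was at 11.71, 12.10, 11.82 and 11.67 in set 1, in the order GHMT, diclofenac, EP4 antagonist and diclofenac plus PGE2, and at 11.86 and 10.94 with GHMT and the EP4 antagonist in set 2. The set 2 EP4 antagonist array stood apart as the lowest of these 6, and the fitted difference was -0.13 (95% interval -0.65 to 0.40). Men1 was at 9.80 with GHMT and at 9.31, 9.28 and 9.38 with the 3 treatments of set 1, against 10.18 and 10.23 with GHMT and the EP4 antagonist in set 2. In set 1, therefore, its GHMT array was the highest and PGE2 on top of diclofenac left it near the diclofenac value. Kmt2b was at 6.85 with GHMT and at 6.51, 6.53 and 6.53 with the treatments of set 1, and at 5.99 and 5.72 with GHMT and the EP4 antagonist in set 2, the last below that array's background of 5.82. The fitted differences were -0.18 for Men1 (95% interval -0.56 to 0.20) and -0.20 for Kmt2b (-0.55 to 0.15).

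Hdac7, Ptbp1 and Becn1 were close between the arms. Hdac7 was at 8.53, 8.69, 8.47 and 8.38 in set 1, in the order given for Kdm6b, and at 8.81 with GHMT and 9.11 with the EP4 antagonist in set 2, a difference of 0.18 (95% interval -0.16 to 0.53). Ptbp1 was at 13.38, 13.42, 13.23 and 13.43 in set 1 and at 13.19 and 13.43 in set 2, a difference of 0.03 (95% interval -0.32 to 0.38). Becn1 was at 7.63, 7.66, 7.55 and 7.49 in set 1 and at 7.92 and 8.15 in set 2, a difference of 0.11 (95% interval -0.23 to 0.44). The intervals of these 3 genes reach at most 0.53 in either direction. Within the limits of 6 arrays, a 2-fold change of any member lies outside its interval.

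**Figure D1:**
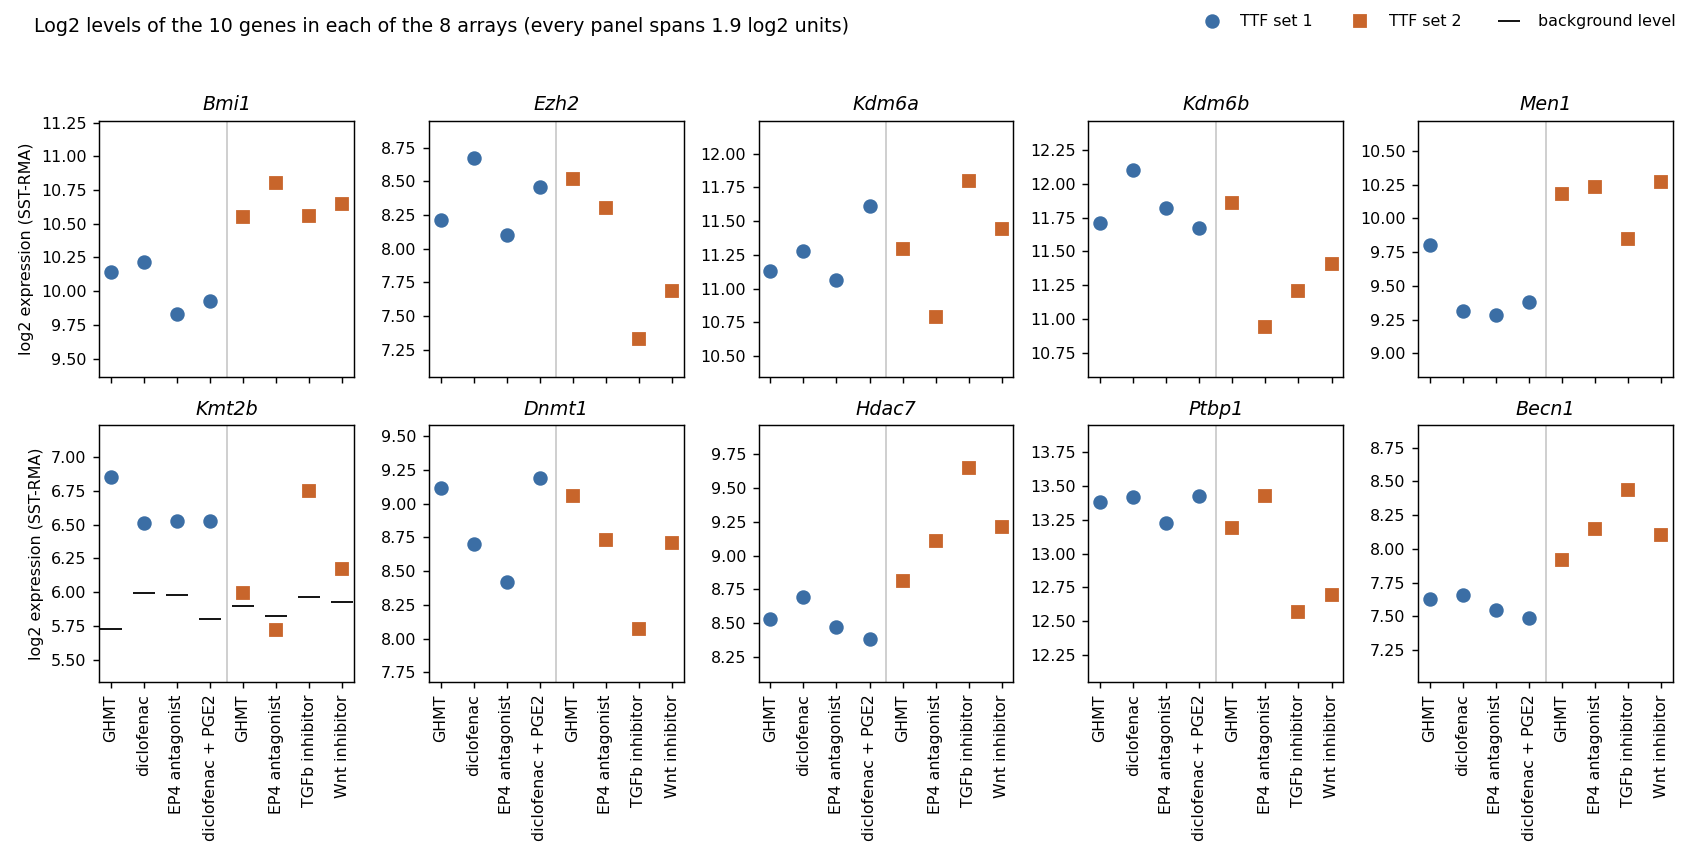
Log2 expression of the 10 genes, 1 panel per gene and 1 point per array, with set 1 and set 2 in different colours. Dnmt1 is lower in the diclofenac and EP4 antagonist arrays (8.42 to 8.73) than in the GHMT and diclofenac plus PGE2 arrays (9.06 to 9.19), and Bmi1, Men1, Becn1 and Hdac7 lie higher in every array of set 2 than in any array of set 1.

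The EP4 antagonist alone was compared with GHMT in both sets, 2 arrays against 2. None of the 10 members passed the limma threshold, and 0% of all clusters did so, while 1243 clusters and 0 members had an unadjusted p under 0.05. Dnmt1 again had the largest difference among the members, -0.52 ± 0.21 (SE; 95% interval -1.03 to 0.00; adjusted p = 0.884, limma), with -0.70 in set 1 and -0.33 in set 2. Kdm6b followed with -0.41 ± 0.29 (95% interval -1.11 to 0.30), for which set 1 gave 0.11 and set 2 gave -0.92. The other 8 members lay between -0.30 (Kmt2b) and 0.12 (Hdac7).

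Taken array by array within set 1, with no replicate and so no test, 2 members lay at least 0.5 lower with the EP4 antagonist than with GHMT, Dnmt1 (-0.70) and Men1 (-0.52), where 8.11% of all clusters were as far down. With diclofenac 0 members reached 0.5 in either direction, against 16.5% of clusters, and the largest differences were those of Men1 (-0.49) and Ezh2 (0.46). Adding PGE2 to diclofenac moved no member by 0.5 against diclofenac (15.4% of clusters moved that far) or against GHMT (15.7%). The nearest was Dnmt1, 0.49 higher with added PGE2 than with diclofenac alone. Kdm6b had the opposite order, 0.39 higher with diclofenac than with GHMT and 0.43 lower again with added PGE2. In set 2 the EP4 antagonist gave 2 members at least 0.5 lower, Kdm6b (-0.92) and Kdm6a (-0.50), the demethylases that remove the Polycomb mark, where 9.57% of clusters were as far down. In set 1 the same contrast gave 0.11 for Kdm6b and -0.07 for Kdm6a, so that neither had a matching difference there. All contrasts of a set share its GHMT array.

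The largest differences of the members were those in the TGFb inhibitor array, again 1 array against 1. Of the 10 members, 8 lay at least 0.5 from GHMT, 4 higher and 4 lower, where 11.1% of all clusters were as far up and 11.4% as far down. Among the 8813 clusters above background in all arrays these shares were 12.4% and 14.1%. Lower were Ezh2 (8.52 with GHMT, 7.33 with the TGFb inhibitor; -1.19, 2.28-fold), Dnmt1 (9.06 and 8.07; -0.99), Kdm6b (11.86 and 11.21; -0.65) and Ptbp1 (13.19 and 12.57; -0.62). Higher were Hdac7 (8.81 and 9.65; 0.84), Kmt2b (5.99 and 6.75; 0.76), Becn1 (7.92 and 8.44; 0.52) and Kdm6a (11.29 and 11.80; 0.51). The Kmt2b value with GHMT lay just above the background of 5.90 in that array. Men1 (-0.33) and Bmi1 (10.55 and 10.56; 0.01) stayed within 0.5. For Ezh2, 1.49% of all clusters differed as far downward, for Dnmt1 2.61%, and for Hdac7 4.08% as far upward.

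The Wnt inhibitor array showed fewer differences of that size. Ezh2 was at 7.69, 0.83 below GHMT, and Ptbp1 at 12.69, 0.50 below it, 2 members of 10, where 11.5% of clusters were as far down, and 0 members were at least 0.5 higher (11.4% of clusters were). Kdm6b (11.41; -0.45), Hdac7 (9.21; 0.40), Dnmt1 (8.71; -0.35), Becn1 (8.10; 0.18), Kmt2b (6.17; 0.18), Kdm6a (11.44; 0.15), Bmi1 (10.65; 0.10) and Men1 (10.27; 0.09) lay within 0.5. Ezh2 and Ptbp1 were the members at least 0.5 lower with both inhibitors, which share a GHMT array.

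**Figure D2:**
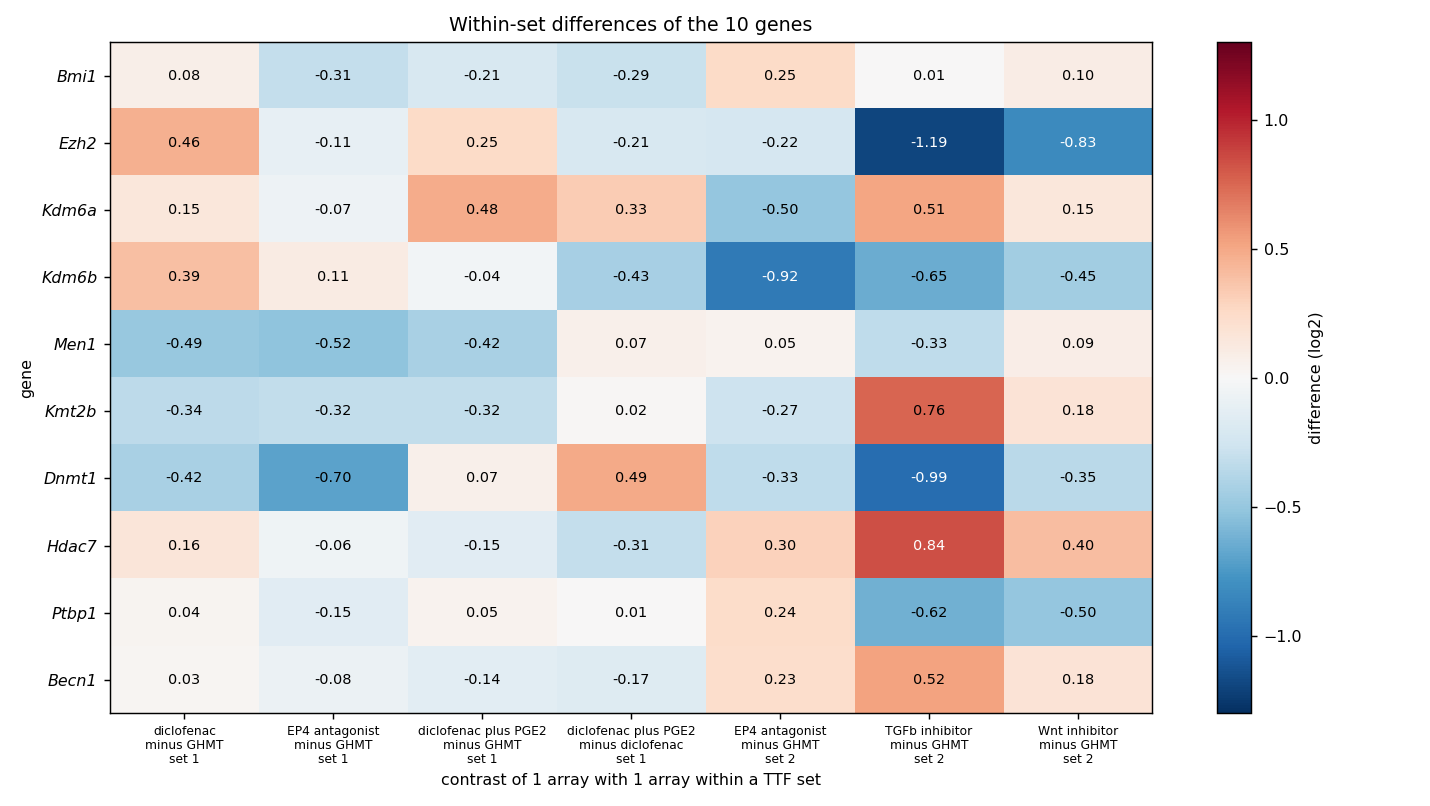
Differences in log2 expression of each gene (rows) for 7 contrasts of 1 array with 1 array within a TTF set (columns), coloured blue for lower and red for higher in the first-named condition. The TGFb inhibitor column holds the lowest value, -1.19 for Ezh2, and 8 of its 10 cells are at least 0.5 from 0, whereas no cell of the diclofenac column is.

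Genes of proliferation were lower in the same arrays as Ezh2 and Dnmt1. The mean of the 19 proliferation genes was 9.48 with GHMT in set 2, 8.47 with the TGFb inhibitor and 8.63 with the Wnt inhibitor. Of these genes, 16 were at least 0.5 lower and 0 higher with the TGFb inhibitor (median -1.08), and likewise 16 and 0 with the Wnt inhibitor (median -0.80). The mitotic kinase gene Plk1 differed by -1.93 with the TGFb inhibitor, and the cyclin gene Ccna2 by -1.61 with the TGFb inhibitor and -1.42 with the Wnt inhibitor. In set 1, Dnmt1 and the proliferation mean were both lowest with the EP4 antagonist and highest with diclofenac plus PGE2. The proliferation means with the EP4 antagonist and diclofenac were nearly equal, however (8.70 and 8.71), where Dnmt1 was at 8.42 and 8.70. In set 2, Dnmt1 differed from GHMT by -0.35 with the Wnt inhibitor and -0.33 with the EP4 antagonist. The proliferation mean differed there by -0.85 and -0.38. Ezh2 departed from the proliferation mean in set 1, 0.46 higher with diclofenac than with GHMT where that mean was 0.27 lower. The part of cell division in the Ezh2 and Dnmt1 values was not tested.

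**Figure D3:**
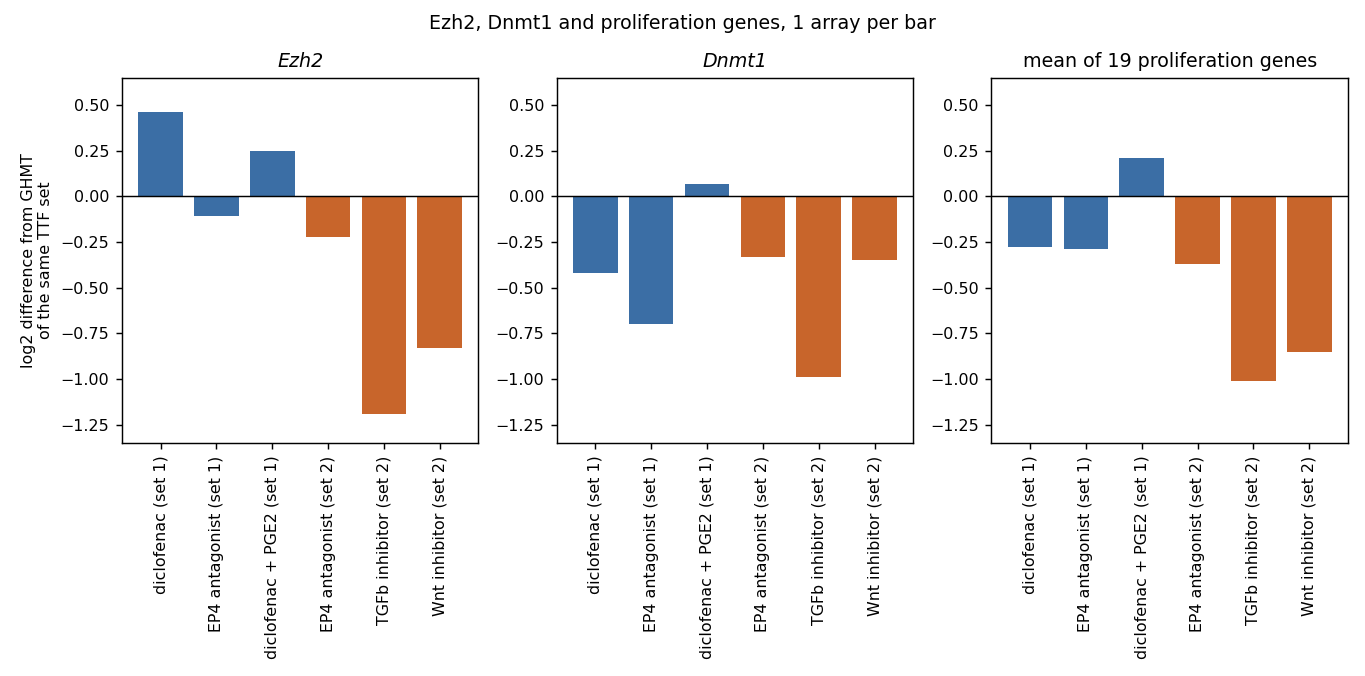
Log2 difference from the GHMT array of the same TTF set for Ezh2, Dnmt1 and the mean of 19 proliferation genes, 1 array per bar, blue for set 1 and orange for set 2. All 3 panels have their lowest bar at the TGFb inhibitor (-1.19, -0.99 and -1.02), while with diclofenac Ezh2 is higher (0.46) and the proliferation mean lower (-0.27).

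The sets of fibroblasts were compared through GHMT and the EP4 antagonist, the conditions present in both, 2 arrays against 2, with treatment as a term. Set number and any difference in handling or normalization between the sets cannot be told apart. Of the 10 members, 1 passed the limma threshold, where 15.3% of all clusters were called and 7.8% called lower in set 2. This was Kmt2b, with means of 6.69 in set 1 and 5.86 in set 2 and a difference of -0.84 ± 0.20 (SE; 95% interval -1.32 to -0.35; adjusted p = 0.0445, limma). Its EP4 antagonist array of set 2 was at background, the TGFb inhibitor array of the same set was at 6.75, and with all 8 arrays (4 against 4) the difference was -0.45 (adjusted p = 0.1, limma). Bmi1 (0.69 ± 0.23, 95% interval 0.13 to 1.25, adjusted p = 0.0833) and Men1 (0.67 ± 0.23, 0.10 to 1.23, adjusted p = 0.0904) were higher in set 2 without reaching the threshold of limma's test. Leaving out an array leaves 1 treatment and no test, and the differences then were 0.41 (GHMT pair) or 0.97 (EP4 antagonist pair) for Bmi1, 0.38 or 0.95 for Men1, and -0.86 or -0.81 for Kmt2b.

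Bmi1, Men1, Becn1 and Hdac7 nevertheless did not overlap between the sets over the 8 arrays, all 4 being higher in set 2, as were 12.9% of all clusters and 26.7% of those above background in all arrays. For Bmi1 the highest array of set 1 was at 10.22 and the lowest of set 2 at 10.55, and for Becn1 these were 7.66 and 7.92. For Men1 they were 9.80 and 9.85, a gap of 0.05, and for Hdac7 8.69 and 8.81. After quantile normalization of all arrays Bmi1 and Becn1 still did not overlap, Men1 and Hdac7 did, and Ptbp1 and Kdm6b no longer overlapped. The median difference of all clusters between the sets (2 against 2) was -0.18. That figure includes the clusters at background, so it does not give the shift of the expressed genes. Among clusters above background in all arrays, those wholly higher in set 2 were more frequent than among all clusters. With all 8 arrays in the fit, 4 against 4, Bmi1 (0.61, adjusted p = 0.0057), Men1 (0.69, 0.00687), Becn1 (0.57, 0.0087) and Hdac7 (0.68, 0.012) passed limma's threshold, where 43.0% of all clusters were called. The clusters called higher in set 2 were 14.7% of all, and 30.1% of those above background in all arrays. That 4 of 10 members passed is near this background, and the fit also sets the TGFb and Wnt inhibitor arrays against diclofenac and diclofenac plus PGE2. Kdm6b (-0.37), Ezh2 (0.26), Dnmt1 (0.13), Kdm6a (-0.06) and Ptbp1 (0.01) did not pass in the comparison of 2 against 2.

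**Figure D4:**
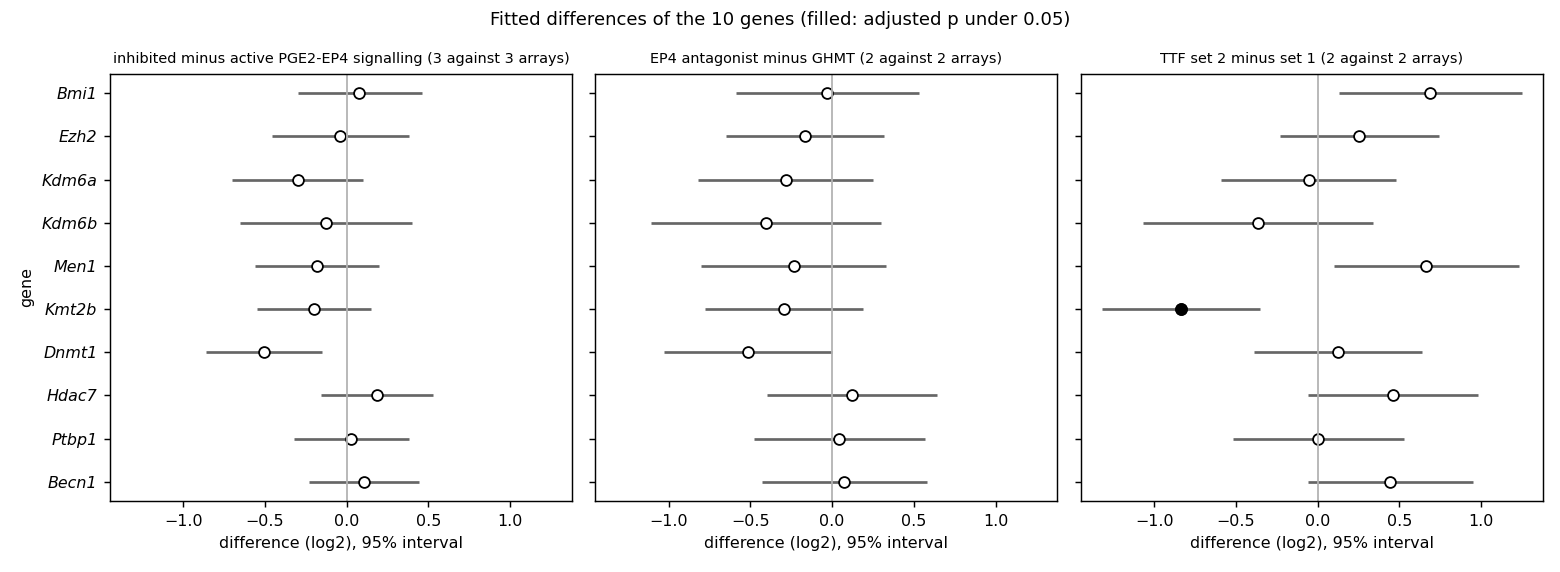
Fitted log2 differences of the 10 genes with 95% intervals from limma for the 3 tested comparisons. Dnmt1 has its interval below 0 for inhibited against active PGE2-EP4 signalling (-0.86 to -0.15, adjusted p = 0.323), and Kmt2b is the only 1 of the 10 past the adjusted threshold, in the comparison of the sets (-1.32 to -0.35).

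Partner genes were taken from 10 lists of complexes and pathways, with 127 of 141 entries matched. In the inhibited against active comparison, and in that of the EP4 antagonist with GHMT, 0 genes of the 10 lists passed limma's threshold. Of 13 measured genes of the KMT2 complexes around Men1, Kmt2b and Kdm6a, 10 had a negative difference (median -0.07), the largest being Kmt2c, a methyltransferase of enhancers (-0.56, adjusted p = 0.338, limma). Of 10 Polycomb complex 2 genes, 1 of them at background in all 8 arrays, 7 were negative (median -0.10). Of 17 Polycomb complex 1 genes, 3 of them at background in all 8 arrays, 10 were negative (median -0.05). The median over all clusters was -0.01. Pcgf5, which can take the place of Bmi1 in variant complexes, had the opposite sign to these medians.

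Pcgf5 was at 9.31 with GHMT, 9.94 with diclofenac, 10.14 with the EP4 antagonist and 9.09 with diclofenac plus PGE2 in set 1, and at 9.70 with GHMT and 10.49 with the EP4 antagonist in set 2. Its inhibited arrays lay above its active ones without overlap, as did 2.75% of all clusters, and the difference was 0.82 ± 0.15 (SE, 3 against 3 arrays; adjusted p = 0.0689, limma). Pcgf5 was also above the GHMT array of set 2 with the TGFb inhibitor (0.67) and the Wnt inhibitor (0.90), beside 0.79 with the EP4 antagonist. Rbm20, a splicing regulator of sarcomere transcripts that acts on some of the same exons as Ptbp1, was at 9.0, 10.70, 10.72 and 8.47 in set 1 and at 9.89 and 10.22 in set 2, with the arrays in the order given for Pcgf5. Its difference was 1.43 ± 0.30 (adjusted p = 0.104, limma), and diclofenac plus PGE2 minus diclofenac gave -2.23. Rbm24, of the same list as Rbm20, differed by 1.22 (adjusted p = 0.0653, limma), but lay above background in 2 of the 8 arrays. None of these genes passed, and each was named for the size of its difference within its list.

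In the TGFb inhibitor array the lists around Ezh2, Dnmt1 and Hdac7 held genes on both sides. Ezh1, the second methyltransferase of the complex, was 0.63 higher with the TGFb inhibitor and 0.62 higher with the Wnt inhibitor, where Ezh2 was lower. Jarid2, which helps to recruit the complex, differed by -0.64 with each. It differed further, by -1.17, with the EP4 antagonist in set 2, and all 3 contrasts share the GHMT array of that set. Of the 10 genes of that list 1 was at least 0.5 higher and 2 lower with the TGFb inhibitor, beside 11.1% and 11.4% of all clusters. With the Wnt inhibitor 2 were higher and 2 lower, beside 11.4% and 11.5% of all clusters. In a list of 10 genes these counts are near those shares. Dnmt3a, a de novo DNA methyltransferase, differed by -0.84 and -0.56 with the TGFb and Wnt inhibitors, beside -0.71 with the EP4 antagonist in set 2. Hdac2, a class I deacetylase, differed by -0.67 and -0.64, beside -0.10 with the EP4 antagonist. Another deacetylase gene, Hdac9, was higher by 0.54 and 0.51, beside 1.07 with the EP4 antagonist. Of 14 splicing regulators 0 were at least 0.5 lower with the TGFb inhibitor, and the 1 that was higher, Rbm24, lay at background in both arrays.

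In the comparison of the sets, 15.3% of all clusters were called. Past limma's threshold were 4 of 19 proliferation genes and 3 of 9 genes that Polycomb complexes silence. Of these 3, Isl1 was at background in all 8 arrays. Of the proliferation genes, 17 of 19 were above background in all 8 arrays. With all 8 arrays in the fit, 30.1% of clusters above background throughout were called higher in set 2, against 14.7% of all clusters. The shares of the lists were not tested against these. The other partner lists held few genes past the threshold, with shares near or below 15.3%. Pcgf1 (1.08) was the 1 of 17 Polycomb complex 1 genes, and Eed (0.97), a core subunit with Ezh2, the 1 of 10 of complex 2. Of 13 KMT2 complex genes 2 rose in set 2, Setd1a (1.11) and Cxxc1 (0.80), and the list's median was 0.37. Uhrf1, which guides Dnmt1 to replicated DNA, rose by 1.78 (1.18 in the GHMT pair and 2.37 in the EP4 antagonist pair) and Tet1, which oxidises methylated cytosine, fell by 1.11, with its GHMT array of set 2 at background. Of 11 deacetylase and corepressor genes, Hdac4, a class IIa relative of Hdac7, rose by 1.25 and Hdac8 fell by 1.10. Of 14 splicing regulators 1 passed, Rbm24 (-1.34, adjusted p = 0.0476, limma), which was at background in 3 of the 4 arrays. Of 16 autophagy genes 3 rose, the cargo receptor gene Sqstm1 (1.10), Map1lc3b (1.05) and Bcl2l1 (0.84), whose product binds beclin 1. After quantile normalization Eed, Cxxc1, Sqstm1, Map1lc3b and Bcl2l1 kept their direction and no longer passed (adjusted p 0.0512 to 0.164, limma). In the proliferation list 16 of 19 genes were higher in set 2 (median 0.38, beside -0.18 over all clusters). Those past the threshold in the main fit were Ccne1 (1.21), Rrm2 (1.07), E2f1 (0.98) and Cdk1 (0.96). Of the markers, 8 of 9 fibroblast genes (median -0.67) and 8 of 10 cardiomyocyte genes (median -0.53) were lower in set 2. The part of dividing cells and of cell makeup in the differences between the sets was not tested.

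Finally, the genes whose pattern over the 8 arrays was most like that of each member were read off after subtraction of each set's mean, as a description over arrays that share a set and a normalization. With this many candidate genes and 8 arrays, high correlations are found for every member. For Ezh2 they were Ostc (Pearson r = 0.994) and Arfgap1 (0.965), for Dnmt1 Ubqln2 (0.985) and Ptpn2 (0.978), for Ptbp1 Msi1 (0.989) and Noc2l (0.988), and for Bmi1 Ankrd27 (0.989) and Slc38a6 (0.933). For Kdm6a they were H2-T10 (0.983) and Mapre2 (0.974), for Kdm6b N4bp2l2 (0.954) and Cdc26 (0.949), and for Men1 Zfp114 (0.987) and Mlst8 (0.979). For Hdac7 they were Stk40 (0.986) and Gltp (0.983), and for Becn1 Iscu (0.982) and Zcchc24 (0.976). Kmt2b was left out because 1 of its arrays was at background.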

How the data were processed

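RNA was measured on Clariom S Mouse arrays, 1 sample per array. The log2 values are the authors' deposited values, made by SST-RMA, a variant of robust multichip analysis, with Affymetrix Expression Console 1.4, per the submitters' processing notes and design text. Nothing states whether both sets entered 1 normalization. Of 28846 rows, 6640 were control probe sets. No genome build is given for the arrays. The number of arrays limits the precision.

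Comparisons used limma 3.58.1 (R 4.3.3; two-sided tests). P-values were adjusted by Benjamini-Hochberg, with a threshold of 0.05, over 22206 transcript clusters. The fibroblast set was a block, and treatment was a term in the comparison of the sets. The set number is on the fibroblasts in the titles, and arrays of the same number deviated together from the means of GHMT and of the EP4 antagonist (r = 0.724 across clusters). Nothing in the labels says that the sets are separate experiments or animals. The p-values therefore measure only the spread between these arrays, which may be technical. No condition was repeated within a set. That spread thus also holds differences between treatments of the same arm, and differences in response between the sets. Differences of single arrays had no test. The fits were tested on simulated data with independent noise, equal for all clusters, which is simpler than the real arrays. That check therefore does not give the error rate of the calls made here. Alternatives were no block, quantile normalization, a filter on low values, a trended robust prior, all 8 arrays in the fit, and leaving out arrays.

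The members, lists and background rule were chosen with earlier results of these data known. All members were named. Of each list, the 3 largest differences and all past the threshold could be named. Likeness took the 2 highest Pearson correlations among named clusters above background with a range of at least 0.5.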

Additional observations from a re-analysis of the deposited data

Results flagged for a closer look

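The EP4 antagonist was given to both fibroblast sets, and for 6 of the 10 genes its difference from GHMT had opposite signs in the sets. Each set has 1 array per condition, so the difference between the sets was not tested. Opposite signs were common, at 47.4% of all clusters and 44.9% of those above background in all arrays. Kdm6b had the widest split, 0.11 in set 1 and -0.92 in set 2. Bmi1 gave -0.31 and 0.25, Men1 -0.52 and 0.05, and Ptbp1 -0.15 and 0.24, in the same order. Hdac7 gave -0.06 and 0.30, and Becn1 -0.08 and 0.23. Dnmt1, Ezh2, Kdm6a and Kmt2b were lower with the antagonist in both sets.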

How the results depend on the processing

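For inhibited against active signalling, 84 clusters passed with the fibroblast set as a block and 0 with no replicate block, 143 with the trended robust prior, 1 with all 8 arrays in the fit, and 0 to 192 when an array was left out (192 without GHMT, 2 without diclofenac, 4 without the EP4 antagonist and 17 without diclofenac plus PGE2 of set 1, and 0 without either array of set 2). Dnmt1 stayed negative when arrays were left out (-0.60 to -0.40) and passed in no alternative run (adjusted p 0.232 to 1.0, limma). Signs turned for Bmi1 (-0.01 to 0.21), Ptbp1 (-0.08 to 0.11), Ezh2 (-0.23 to 0.10) and Kdm6b (-0.32 to 0.27). Pcgf5 passed with a filter on low values (adjusted p = 0.0472, limma) and the trended robust prior (0.0443). For the EP4 antagonist, 0 clusters became 31 after quantile normalization, 1 with the filter and 8 with the trended robust prior. Leaving out an array there leaves 1 set and no test.

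Between the sets, 3387 clusters became 9555 with all 8 arrays. Leaving out an array gave 0.29 to 0.60 for Becn1, 0.28 to 0.64 for Hdac7, -0.88 to 0.15 for Kdm6b, -0.27 to 0.16 for Kdm6a, -0.19 to 0.20 for Ptbp1 and -0.06 to 0.31 for Dnmt1. The sign turned for Ptbp1 (-0.39) and Dnmt1 (-0.13) after quantile normalization, and with all 8 arrays for Ptbp1 (-0.40), Ezh2 (-0.40), Kdm6a (0.06) and Dnmt1 (-0.21). The cause was not tested. Quantile normalization also put 1 member (Men1) at least 0.5 lower with diclofenac, 1 (Dnmt1) higher with added PGE2, and left 1 in place of 2 lower with the EP4 antagonist in set 2. No member had another transcript cluster to try.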

Other observations

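Of 9 measured genes that Polycomb complexes are known to silence, 3 were positive and 6 negative in set 2 minus set 1 (median -0.20, beside -0.18 over all clusters). The 3 positive ones, Cdkn2a, Cdkn2b and Isl1, passed limma's threshold, where 15.3% of all clusters were called, and Isl1 was at background in all 8 arrays. Of the negative ones, Gata4 (also a transduced factor), Gata6, Nkx2-5 and Hand1 were at background in all 8 arrays, and Cdkn1c was above it in 1. Tbx20, the remaining negative one, was above background in all 8 arrays and close between the sets. It was at 11.25 with GHMT and 11.92 with the EP4 antagonist in set 1, and at 11.93 and 11.21 in set 2. Cdkn2a, which encodes cell cycle inhibitors, was at 5.64, 5.65, 5.57 and 5.15 in the arrays of set 1, all at background. In set 2 it was at 6.70 with GHMT, 7.94 with the EP4 antagonist, 6.73 with the TGFb inhibitor and 5.78 with the Wnt inhibitor. The Wnt inhibitor value lay below that array's background of 5.93. Cdkn2b, the neighbour of Cdkn2a, was above background in all 8 arrays, at 6.86 to 7.70 in set 1 and 7.97 to 8.60 in set 2. Cdkn2b rose by 0.98 in set 2 (limma, 2 arrays against 2). In the same comparison the difference of Bmi1, a known repressor of this locus, was 0.69 and did not pass. With all 8 arrays in the fit Bmi1 passed, as given above. A link between the Bmi1 and Cdkn2b values was not tested.

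Atg7, an enzyme of autophagosome formation, was at 7.25 with GHMT and 7.15 with the EP4 antagonist in set 2, and at 8.35 with the TGFb inhibitor and 8.32 with the Wnt inhibitor. It stood 1.10 and 1.07 above GHMT there, with 1 array each and no test, and at 6.19 to 6.73 in set 1.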
